A study of Mus musculus with 18 samples.

Results

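Round spermatids (RS) of mice that lack the phosphorylated form of GRTH were compared with RS of wild-type mice across all genes. GRTH, the protein of the gene Ddx25, is an RNA helicase of the testis, and the KI and WT libraries used here are 11 of the 18 libraries of the series, 5 of KI and 6 of WT. The study isolated RS from testes of WT, KO and KI mice aged 75-85 days and made strand-specific libraries of total RNA without polyA selection, to ask what GRTH and its phosphorylated form do to the messages of RS. KI mice, as the study describes them, carry a human GRTH gene with a missense mutation and make the protein without its phosphorylated form, and KO mice lack GRTH. The WT mice carry neither change, and the labels name no treatment. The labels and methods do not say whether each library came from its own animal, so p-values measure the spread between libraries, which may be technical. A sixth library, labelled KI 4, was left out because its Ddx25 level, 56.9 CPM, lies in the range of the KO libraries (47.7 to 90.97 CPM). Levels are given as normalized CPM, in which each gene's count is divided by the TMM-adjusted library size. Of the 54232 genes in the table, 21257 passed the filter on low counts and were tested.

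RS are the haploid germ cells that follow meiosis, and over the next steps they pack their chromatin with protamines in place of histones, build an acrosome and grow a flagellum. Many messages for these steps are transcribed in RS, stored in ribonucleoprotein particles and in the chromatoid body, and translated later in elongating spermatids. GRTH binds messages of this kind and takes part in their export and storage, and mice without it have spermatids that do not elongate.

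The libraries had a similar depth, with totals of 20606738 to 26776555 counts on genes in WT and 19996042 to 24915182 in KI. Libraries of a genotype were not equally far apart. An index of the squared count differences between 2 libraries, in which 1 is the value that counting alone gives, was lowest within genotypes of this comparison for WT 1 with WT 2 (2.14), then KI 1 with KI 2 (2.61), KI 3 with KI 5 (2.66), WT 3 with WT 4 (2.86) and WT 5 with WT 6 (3.02), and 4.64 for the next pair of the series. The closest pair of the series was the library labelled KI 4 with KO 2, at 1.59. WT 5 and WT 6 also stood apart from the other WT libraries on the second principal component, which held 12.6% of the variance of the most variable genes. On that component WT 5 and WT 6 lay on the side of the KI libraries, and the other WT libraries on the side of the KO libraries. KO 4 with KO 5 was at 2.07, and this pair was summed too. With the pairs summed to 3 KI, 3 WT and 5 KO libraries, the calls described below fell to 165 lower and 62 higher genes. With WT 5 and WT 6 left out the calls were 300 and 108.

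The cell type in the labels was checked against marker genes. All 10 markers of RS were detected, and their summed level was 1314 ± 218 CPM in WT and 998 ± 169 CPM in KI. Acr, which encodes the acrosomal protease acrosin and was the most abundant of them per length, was at 188 ± 11.8 CPM in WT and 188 ± 43.3 CPM in KI. Among the 10 RS markers, 4 were lower by any amount and 0 higher. Their log2 fold changes ran from -0.85 to 0.0014, with a median of -0.48. Spermatocyte markers, the cells before RS, summed to 1826 ± 99.9 CPM in WT and 2014 ± 84.3 CPM in KI, and 2 of 10 were higher and 1 lower by any amount, beside 14.5% higher and 15.8% lower of all genes tested. One of those higher was Sycp3, a component of the synaptonemal complex (log2 fold change 0.73 ± 0.16 (SE), edgeR glmQLFTest adjusted p = 0.00146), the largest rise of the list. The log2 fold changes of the spermatocyte markers ran from -0.37 to 0.73 with a median of 0.19, and 7 of the 10 were called in neither direction. In bulk RNA, fewer cells of a type and less RNA per cell cannot be told apart.

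Markers of Leydig cells, which make testosterone between the tubules, were higher in KI. All 6 tested markers (Star, Cyp11a1, Cyp17a1, Hsd3b1, Hsd3b6 and Insl3) rose by any amount with a median log2 fold change of 1.65, beside 14.5% higher of all genes tested. Past 1 log2 unit 0 of the 6 were higher, beside 0.452%. The seventh, Lhcgr, was below the filter. Their summed level was 51.5, 74.9, 18.96, 14.7 and 20.3 CPM in KI 1, 2, 3, 5 and 6, and 11.3, 10.8, 12.6, 12.7, 11.2 and 22.4 CPM in WT 1 to 6, so the groups overlapped and KI 1 and KI 2 were highest. Insl3 was the most abundant of these markers per length. Star alone of the 6 did not overlap between the genotypes, beside 16.3% of all genes tested. Endothelial markers summed to 14.96 ± 2.64 CPM in WT and 22.9 ± 2.79 CPM in KI, with Vwf, a clotting protein of vessel walls, the most abundant (log2 fold change 0.77 ± 0.16 (SE), edgeR glmQLFTest adjusted p = 0.00105). Of the 6 endothelial markers tested 2, Vwf and Tek, were higher by any amount and 0 lower, beside 14.5% and 15.8% of all genes tested. Their log2 fold changes ran from -1.32 (Kdr, not called) to 1.31, and the median was 0.27. By any amount 2 of 9 Sertoli cell markers were lower and 1 higher, and 2 of 7 macrophage markers were higher and 1 lower. Sertoli cell markers summed to 20.6 ± 5.06 CPM in WT and 17.4 ± 2.26 CPM in KI, and macrophage markers to 12.4 ± 1.74 CPM in WT and 15.4 ± 1.099 CPM in KI. Markers of spermatogonia summed to 36.8 ± 3.899 CPM in WT and 36.4 ± 12.9 CPM in KI, of peritubular myoid cells to 5.66 ± 0.642 CPM in WT and 5.01 ± 1.16 CPM in KI and of erythroid cells to 2.68 ± 0.525 CPM in WT and 2.53 ± 0.716 CPM in KI. The study's isolation included a digestion of the tubules meant to remove Leydig cells. The part of these cells in the results below was not tested.

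The transcriptome of KI RS differed from WT in far more lower than higher messages once a change of 1 log2 unit was required. Of the genes tested, 320 were lower (1.51%) and 96 higher (0.452%) in edgeR's test against that threshold (glmTreat, adjusted p under 0.1). The interval form of this test, run first and replaced after its counts were seen, gave 460 lower and 151 higher. Requiring at least 10 counts in every library left 251 and 26. A change of any amount was found for 3361 lower genes (15.8%) and 3090 higher genes (14.5%), nearly balanced, and the median log2 fold change of all genes was 0.05. With libraries scaled to their total counts alone the median of all genes moved to 0.21, the calls past 1 log2 unit were 245 lower and 122 higher, and 31.5% of calls of any amount were lower in place of 52.1%. The fold changes below use the TMM scaling, and list medians close to 0 are given as values with no direction. The KI and WT libraries did not overlap for 410 of the 416 genes past 1 log2 unit, against 16.3% of all genes tested. Genes named below for the size of their change were taken from those without overlap, so the lack of overlap of each is a description.

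**Figure D1:**
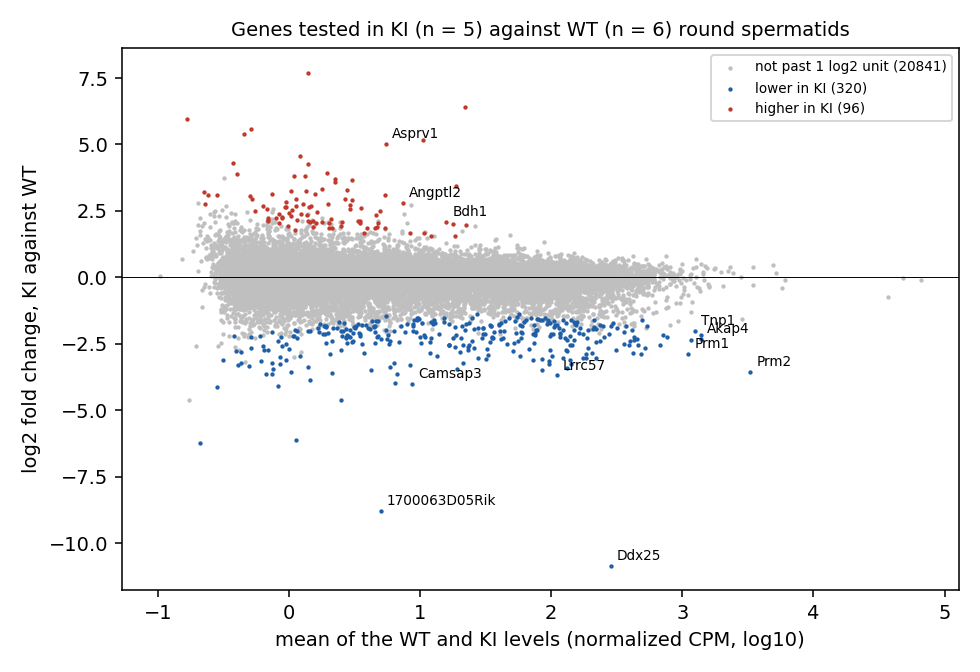
Each point is one of the 21257 genes tested, with the mean of its WT and KI levels (normalized CPM on a log10 scale) on the x axis and its edgeR log2 fold change, KI against WT, on the y axis. The 320 lower genes (blue) reach into the most abundant messages, while the 96 higher genes (red) lie mostly at low levels.

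Lower and higher genes sat at different levels. The lower genes had a median of 36.8 CPM in WT and 7.11 CPM in KI, and the higher genes 0.400 CPM in WT and 2.56 CPM in KI, beside a median of 5.04 CPM in WT for all genes tested. Sorted by the mean of both genotypes, which replaced a sorting by WT alone after those values were seen because the latter favours falls, 6 of 52 genes over 1000 CPM were lower (11.5%), as were 76 of 2128 between 100 and 1000 CPM (3.57%) and 30 of 4415 under 1 CPM (0.680%). Above 100 CPM 0 genes were higher past 1 log2 unit in edgeR's glmTreat, while by any amount 248 of 2128 genes between 100 and 1000 CPM and 6 of 52 over 1000 CPM were higher. The lower genes together held 5.24 ± 0.522% (SD, n = 6) of the normalized counts in WT and 1.16 ± 0.144% (n = 5) in KI. The higher genes held 0.00930 ± 0.000599% in WT and 0.0562 ± 0.00586% in KI.

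**Figure D2:**
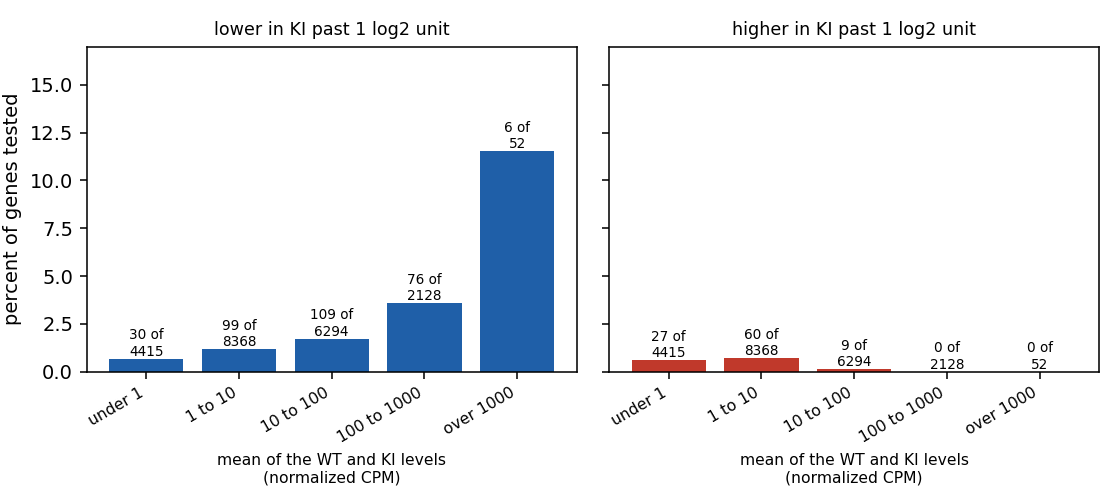
Bars give the percent of genes tested that were lower (left) or higher (right) in KI past 1 log2 unit, by the mean of the WT and KI levels in normalized CPM, with the counts above each bar. The lower share rises to 6 of 52 genes over 1000 CPM, and the higher share is 0 above 100 CPM.

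Ddx25 itself lies on chromosome 9. Its level chose the KI libraries, so its values are given as a description with no test. Ddx25 was at 538, 564 and 608 CPM (lowest, median and highest) in WT and at 0.354, 0.519, 0.0456, 0.327 and 0.245 CPM in the KI libraries, a log2 fold change of -10.85 ± 0.31 (SE), beside 47.7 to 90.97 CPM in KO and 56.9 CPM in the library labelled KI 4. Leaving that library out sets the lack of overlap between KI and KO on this gene and the size of the difference. These counts are on the mouse gene, so they do not measure the human GRTH gene that KI mice carry.

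Genes that pack the sperm nucleus fell together. All 5 transition proteins and protamines, which replace histones in elongating spermatids, were lower past 1 log2 unit (1.51% of all genes tested were), with a median log2 fold change of -2.41, and their summed level was 12392 ± 1463 CPM in WT and 1733 ± 208 CPM in KI. Prm2, a protamine and the most abundant of them per length (6797 CPM per kb in WT), was at 4715, 6336 and 6801 CPM (lowest, median and highest) in WT and at 551, 561, 394, 525 and 559.6 CPM in the KI libraries (log2 fold change -3.55 ± 0.24 (SE), edgeR glmTreat adjusted p = 2.2e-07). Every KI library was below every WT library, and KI 3 was the lowest.

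Prm1, the other main protamine, was at 1590.0, 2000.1 and 2115 CPM (lowest, median and highest) in WT and at 303, 279, 202, 266 and 269 CPM in the KI libraries (log2 fold change -2.89 ± 0.19 (SE), edgeR glmTreat adjusted p = 4.3e-07). Tnp1, a transition protein that takes the place of histones before the protamines, was at 1724, 2006 and 2321 CPM (lowest, median and highest) in WT and at 494, 483, 419.7, 511 and 546 CPM in the KI libraries (log2 fold change -2.03 ± 0.18 (SE), edgeR glmTreat adjusted p = 4.0e-04). Tnp2, the second transition protein, was at 1548, 1942 and 2382 CPM (lowest, median and highest) in WT and at 410.5, 417, 297, 385 and 418 CPM in the KI libraries (log2 fold change -2.35 ± 0.20 (SE), edgeR glmTreat adjusted p = 5.9e-05). No KI library of these genes reached the lowest WT library. Prm3, a short acidic protein encoded in the protamine cluster, fell as well (log2 fold change -2.41 ± 0.25 (SE), edgeR glmTreat adjusted p = 5.0e-04).

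Of 15 tested histone variants of spermatids, 4 were lower past 1 log2 unit and 0 higher, and 7 were lower and 2 higher by any amount (median -0.42), beside 1.51% lower past 1 log2 unit, 15.8% lower by any amount and 14.5% higher by any amount of all genes tested. H1fnt, a linker histone of spermatids, was at 351, 449 and 541 CPM (lowest, median and highest) in WT and at 107, 105, 77.6, 97.6 and 122 CPM in the KI libraries (log2 fold change -2.15 ± 0.27 (SE), edgeR glmTreat adjusted p = 0.01103). Hypm, an H2A-like variant, was at 51.2 CPM in WT and 11.6 CPM in KI (log2 fold change -2.14 ± 0.20 (SE), edgeR glmTreat adjusted p = 4.4e-04). H2al2a, another of these variants, was at 43.4 CPM in WT and 11.7 CPM in KI (log2 fold change -1.89 ± 0.18 (SE), edgeR glmTreat adjusted p = 0.00284). The fourth was 1700024P04Rik (log2 fold change -1.82 ± 0.19 (SE), edgeR glmTreat adjusted p = 0.01103). With close pairs of libraries summed 1 of the 15 was lower past 1 log2 unit, and H1fnt lost the call. In the other direction Hist1h1t, the linker histone of spermatocytes and early spermatids, was higher by any amount (log2 fold change 0.92 ± 0.26 (SE), edgeR glmQLFTest adjusted p = 0.0124). Among 18 chromatin regulators of histone replacement 1 was lower past 1 log2 unit, Naa60, an acetyltransferase (log2 fold change -1.97 ± 0.13 (SE), edgeR glmTreat adjusted p = 3.4e-05). By any amount 5 of these regulators were higher and 3 lower, beside 14.5% and 15.8% of all genes tested. The 50 tested replication-dependent histone genes gave 0 calls past 1 log2 unit, with 6 lower and 2 higher by any amount.

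**Figure D3:**
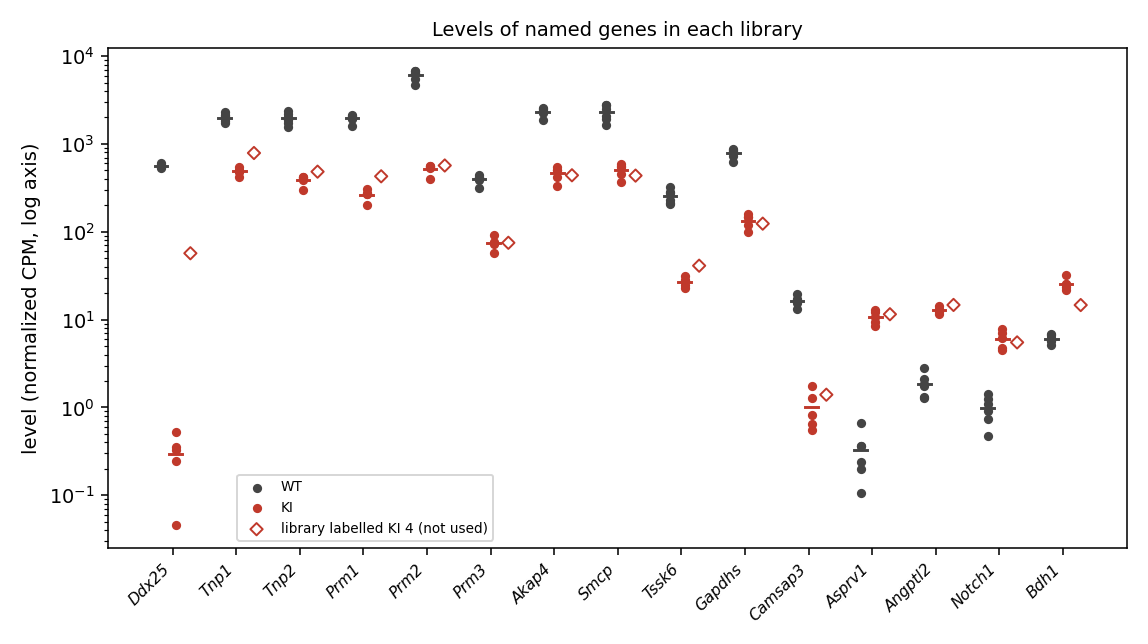
Points give the normalized CPM of 15 named genes in each library on a log axis, WT in grey and KI in red, with short lines at the means and an open diamond for the library labelled KI 4, which was not used. WT and KI points do not overlap for any gene shown, and for Ddx25 the diamond lies at 56.9 CPM, far above the 5 KI libraries.

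Among testis-specific serine kinases, which phosphorylate proteins of late spermatids, some fell. Of 6 tested, 2 were lower past 1 log2 unit, 5 were lower by any amount and 0 were higher (median -1.01), beside 1.51% lower past 1 log2 unit and 15.8% lower by any amount of all genes tested. Tssk6, whose loss disturbs chromatin condensation, was at 205, 255 and 326 CPM (lowest, median and highest) in WT and at 28.2, 27.3, 22.9, 24.9 and 31.7 CPM in the KI libraries (log2 fold change -3.24 ± 0.19 (SE), edgeR glmTreat adjusted p = 4.8e-08). Tssk3 was at 161 CPM in WT and 37.1 CPM in KI (log2 fold change -2.12 ± 0.18 (SE), edgeR glmTreat adjusted p = 2.0e-04). Tssk2 did not pass the threshold, with 244 ± 45.3 CPM in WT and 90.8 ± 16.5 CPM in KI (log2 fold change -1.42 ± 0.24 (SE), edgeR glmTreat adjusted p = 1), and Tssk5 was at 14.4 CPM in WT and 15.5 CPM in KI with a log2 fold change of 0.11 ± 0.20.

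The flagellum has an axoneme of microtubules inside sheaths and dense fibers. Of 28 genes of the fibrous sheath, outer dense fibers and mitochondrial sheath, 11 were lower past 1 log2 unit, 19 were lower by any amount and 0 were higher in either test (median -0.97), while 9 were called in neither. Of all genes tested 1.51% were lower past 1 log2 unit and 15.8% were lower by any amount. With close pairs of libraries summed 7 were lower past 1 log2 unit. Akap4, the main protein of the fibrous sheath, was at 1856, 2384 and 2586 CPM (lowest, median and highest) in WT and at 507, 504, 333, 422 and 540.1 CPM in the KI libraries (log2 fold change -2.33 ± 0.26 (SE), edgeR glmTreat adjusted p = 0.00143). Smcp, a cysteine-rich protein of the mitochondrial sheath and the most abundant of the list per length (2507 CPM per kb in WT), was at 1649, 2286 and 2811 CPM (lowest, median and highest) in WT and at 557, 551, 369, 449 and 598 CPM in the KI libraries (log2 fold change -2.18 ± 0.29 (SE), edgeR glmTreat adjusted p = 0.0167). Neither gene overlapped between the genotypes, and both lost the call when close pairs of libraries were summed.

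Spem1 was at 248, 313 and 367 CPM (lowest, median and highest) in WT and at 41.2, 42.4, 30.1, 33.2 and 42.1 CPM in the KI libraries (log2 fold change -3.04 ± 0.18 (SE), edgeR glmTreat adjusted p = 6.9e-08), and Spem2 at 388 ± 54.4 CPM in WT and 47.7 ± 7.41 CPM in KI (log2 fold change -3.02 ± 0.25 (SE), edgeR glmTreat adjusted p = 5.3e-06). Spem1 is needed to shed the cytoplasm of the spermatid. Odf1, an outer dense fiber protein, was at 664 CPM in WT and 166 CPM in KI (log2 fold change -1.997 ± 0.20 (SE), edgeR glmTreat adjusted p = 0.00202), and Cabs1, a calcium-binding protein of the spermatid, at 733 CPM in WT and 102 CPM in KI (log2 fold change -2.85 ± 0.26 (SE), edgeR glmTreat adjusted p = 3.4e-05). The 35 axonemal dyneins, radial spoke and CFAP genes had a median log2 fold change of 0.16, with 5 higher and 3 lower by any amount, beside 14.5% and 15.8% of all genes tested. The only axonemal gene past 1 log2 unit was Efcab1, a calcium-binding protein of cilia, at 28.2 CPM in WT and 4.77 CPM in KI (log2 fold change -2.56 ± 0.16 (SE), edgeR glmTreat adjusted p = 6.1e-07). That is 1 of 35, beside 1.51% lower past 1 log2 unit of all genes tested. Rsph1, a radial spoke protein and the most abundant per length, was at 631 ± 75.9 CPM in WT and 777 ± 265 CPM in KI (log2 fold change 0.30 ± 0.19 (SE), edgeR glmQLFTest adjusted p = 0.282). The difference between the sheath and axonemal lists is described by these counts and was not tested.

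Camsap3, which binds the minus ends of microtubules, had one of the largest falls. It was at 13.2, 16.6 and 19.4 CPM (lowest, median and highest) in WT and at 1.77, 1.28, 0.547, 0.654 and 0.815 CPM in the KI libraries (log2 fold change -4.01 ± 0.32 (SE), edgeR glmTreat adjusted p = 1.0e-06). Of 28 genes of the manchette, the LINC complex and microtubule ends, 2 were lower past 1 log2 unit and the second was Tbc1d20, a regulator of Rab proteins (log2 fold change -1.59 ± 0.16 (SE), edgeR glmTreat adjusted p = 0.0278), which lost the call under 6 alternatives. The median of that list was -0.07, with 10 lower and 2 higher by any amount, beside 15.8% and 14.5% of all genes tested, and 1.51% lower past 1 log2 unit.

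Sperm draw energy from glycolysis along the flagellum and from the mitochondria of the midpiece. Of 18 glycolytic genes 3 were lower past 1 log2 unit, 9 were lower and 2 higher by any amount, and 7 were called in neither direction (median -0.52). Of all genes tested 1.51% were lower past 1 log2 unit. Gapdhs, the glyceraldehyde-phosphate dehydrogenase of the flagellum, was at 624, 814 and 870.5 CPM (lowest, median and highest) in WT and at 146, 147, 99.3, 121 and 158 CPM in the KI libraries (log2 fold change -2.54 ± 0.27 (SE), edgeR glmTreat adjusted p = 5.5e-04). Gpi1, glucose-phosphate isomerase, was at 332 CPM in WT and 91.3 CPM in KI (log2 fold change -1.86 ± 0.15 (SE), edgeR glmTreat adjusted p = 6.5e-04). Ldhc, the testis lactate dehydrogenase and the most abundant of the list per length, was at 2270.2 ± 182 CPM in WT and 1819 ± 554 CPM in KI and did not pass the test for any amount (log2 fold change -0.32 ± 0.19 (SE), edgeR glmQLFTest adjusted p = 0.2496). The 92 nuclear genes of oxidative phosphorylation gave 0 calls past 1 log2 unit and 23 lower, 0 higher by any amount, beside 15.8% lower and 14.5% higher of all genes. Their summed level was 5386, 5498, 3132, 3341 and 3875 CPM in KI 1, 2, 3, 5 and 6 and 4241 to 5765 CPM in WT, so KI 1 and KI 2 lay within WT and the other KI libraries below it. The 13 protein genes of the mitochondrial genome gave 0 calls in either test.

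Promoters of some genes that fell shared a stretch of letters. RefSeq promoters (GRCm38.p6, 250 bases before to 50 after a start site) were found for 218 of the 320 lower and 61 of the 96 higher genes. The letters TGATGTCA, a variant of the cAMP response element TGACGTCA, were noticed in promoters of genes already known to fall, after the sequences and values were seen, and 10 motifs were then counted on both strands. TGATGTCA was held by 28 of the 218 lower promoters (12.8%), 7 of the 61 higher (11.5%), 4.38% of promoters of all genes tested and 4.18% of all 27025 promoters. For TGACGTCA these shares were 3.67%, 1.64%, 3.25% and 2.03%, for TATAAA 8.26%, 11.5%, 10.05% and 15.7%, and for GGGCGG 40.4%, 54.1%, 58.1% and 38.2%. Among the lower promoters and those of all genes tested, the shares were 27.1% and 31.1% for the shortened site TGACG, which TGACGTCA contains, 4.13% and 3.93% for the letters TATATA, and 17.4% and 16.2% for part of the X-box, GTTGCC. They were 5.96% and 7.004% for the CCAAT box in the form CCATTGG, 10.6% and 10.4% for the E-box CACGTG, and 0.917% and 0.884% for the variant TGACGCAA. Only 68.1% of the lower genes had an entry, under 80%, so a comparison of these shares is void, and no test was run. The stretches below are those of the named genes whose match lies wholly before the start site, 5′ to 3′ on the gene's strand, with TGATGTCA or its opposite strand TGACATCA in capitals. They show where the letters lie in promoters of genes that fell, and a match is not a binding site. Of the start sites of Gapdhs the one nearest to a match is shown.
Akap4, chrX:7067462-7067505, plus strand: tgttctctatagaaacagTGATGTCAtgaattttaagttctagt
Tnp1, chr1:73015968-73016011, minus strand: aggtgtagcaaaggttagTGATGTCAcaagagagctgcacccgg
Gapdhs, chr7:30739434-30739477, minus strand: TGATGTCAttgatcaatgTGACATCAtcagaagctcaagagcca
Lrrc57, chr2:120609358-120609401, minus strand: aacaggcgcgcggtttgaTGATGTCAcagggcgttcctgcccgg
Csnk1g2, chr10:80629611-80629654, plus strand: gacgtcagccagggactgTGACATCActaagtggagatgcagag
Hipk1, chr3:103791583-103791626, minus strand: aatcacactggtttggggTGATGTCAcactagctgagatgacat
The capitals end 27 bases before the start site in Akap4 and 86 in Tnp1. The Tnp1 stretch is also upstream of 1700027A15Rik on the other strand, which was at 181 CPM in WT and 23.2 CPM in KI (log2 fold change -2.96 ± 0.18 (SE), edgeR glmTreat adjusted p = 1.9e-07).

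Polyamine and ketone genes gave calls in both directions. Azin2, a regulator of polyamine synthesis, was at 181, 217 and 270.5 CPM (lowest, median and highest) in WT and at 31.7, 27.7, 22.4, 23.6 and 28.7 CPM in the KI libraries (log2 fold change -3.03 ± 0.17 (SE), edgeR glmTreat adjusted p = 5.0e-08). Oxct2b, which uses ketone bodies in sperm, was at 225 CPM in WT and 34.2 CPM in KI (log2 fold change -2.72 ± 0.20 (SE), edgeR glmTreat adjusted p = 3.7e-06), and Oaz3, the antizyme of spermatids and the most abundant of the list per length, at 1159 CPM in WT and 197 CPM in KI (log2 fold change -2.56 ± 0.20 (SE), edgeR glmTreat adjusted p = 1.2e-05). Bdh1, which converts one ketone body into another, was at 5.21, 6.01 and 6.91 CPM (lowest, median and highest) in WT and at 25.1, 21.9, 25.2, 23.8 and 31.9 CPM in the KI libraries (log2 fold change 2.07 ± 0.12 (SE), edgeR glmTreat adjusted p = 3.7e-06). Of 23 genes in the list 4 were lower and 1, Bdh1, higher past 1 log2 unit, beside 1.51% and 0.452% of all genes tested. By any amount 6 were lower and 2 higher, beside 15.8% and 14.5%, and 15 were called in neither direction.

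Genes of the acrosome and of the sperm surface gave calls past 1 log2 unit that stand beside 1.51% lower and 0.452% higher of all genes tested, and calls by any amount that stand beside 15.8% lower and 14.5% higher. Of 28 acrosome genes 1 was lower past 1 log2 unit, Pdzd8 (log2 fold change -1.85 ± 0.19 (SE), edgeR glmTreat adjusted p = 0.00543), which tethers the endoplasmic reticulum to other organelles, while 12 were lower and 1 higher by any amount (median -0.48). Crisp2, the most abundant per length, was at 1350.1 ± 313 CPM in WT and 854 ± 250.1 CPM in KI (log2 fold change -0.66 ± 0.28 (SE), edgeR glmQLFTest adjusted p = 0.0948). Of 17 genes of sperm-egg binding and fusion 0 passed 1 log2 unit, while 8 were lower and 1 higher by any amount. In the list of CatSper and sperm ion transport genes Atp1b3, a subunit of the sodium pump, was the 1 gene of 19 past 1 log2 unit, at 347 CPM in WT and 90.9 CPM in KI (log2 fold change -1.93 ± 0.21 (SE), edgeR glmTreat adjusted p = 0.00706), and 6 of the 19 were lower and 1 higher by any amount. Atp1b3 and Pdzd8 lost the call with close pairs of libraries summed.

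Ubiquitin pathway genes of spermatids, which serve the turnover of histones and other proteins, had 4 of 37 lower past 1 log2 unit and 0 higher, and 12 lower and 2 higher by any amount (median -0.20), where 1.51% of all genes tested were lower past 1 log2 unit, and 15.8% lower and 14.5% higher by any amount. Ube2k, a ubiquitin-conjugating enzyme, was at 231, 283 and 343 CPM (lowest, median and highest) in WT and at 78.6, 71.9, 52.9, 54.8 and 66.6 CPM in the KI libraries (log2 fold change -2.14 ± 0.15 (SE), edgeR glmTreat adjusted p = 2.1e-05). Spata3 was at 326 CPM in WT and 44.8 CPM in KI (log2 fold change -2.86 ± 0.23 (SE), edgeR glmTreat adjusted p = 6.3e-06). Rnf138, a RING finger ligase and the most abundant per length, was at 739.7 CPM in WT and 241 CPM in KI (log2 fold change -1.62 ± 0.18 (SE), edgeR glmTreat adjusted p = 0.0551), and lost the call under 13 alternatives. Heat shock and unfolded protein response genes had 3 of 31 lower past 1 log2 unit, among them Dnajb8, a testis chaperone (log2 fold change -2.36 ± 0.24 (SE), edgeR glmTreat adjusted p = 6.1e-04), and Hspa1l, the testis member of the Hsp70 family (log2 fold change -2.06 ± 0.27 (SE), edgeR glmTreat adjusted p = 0.0201). With close pairs summed 2 of the 37 ubiquitin genes and 1 of the 31 heat shock genes were lower past 1 log2 unit, and Hspa1l lost the call.

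The study measured a panel of genes by qRT-PCR in RS of KO and KI mice. It names falls in either genotype, and Ppp2r5a only among those of KO. All 12 members of the panel were lower past 1 log2 unit here, beside 1.51% of all genes tested. Their median log2 fold change was -1.84, and 5 of the 12 kept the call with close pairs of libraries summed. Hipk1, Jag1 and Pdzd8 lost it under that alternative alone. The panel was chosen on these libraries, so its count is not independent evidence of a direction, and Pdzd8, Ube2k, Rnf138 and Akap1 are members of other lists here too. The largest fall was in Csnk1g2, a casein kinase, at 538, 705 and 779 CPM (lowest, median and highest) in WT and at 139, 142, 98.6, 116 and 147 CPM in the KI libraries (log2 fold change -2.39 ± 0.24 (SE), edgeR glmTreat adjusted p = 4.3e-04). Ppp2r5a, a regulatory subunit of protein phosphatase 2A, was at 20.2 CPM in WT and 4.14 CPM in KI (log2 fold change -2.28 ± 0.18 (SE), edgeR glmTreat adjusted p = 5.6e-05), Hipk1, a nuclear kinase, at 226 CPM in WT and 71.4 CPM in KI (log2 fold change -1.66 ± 0.14 (SE), edgeR glmTreat adjusted p = 0.00474), and Jag1, a Notch ligand, at 25.7 CPM in WT and 7.69 CPM in KI (log2 fold change -1.74 ± 0.15 (SE), edgeR glmTreat adjusted p = 0.00327). Akap1, which anchors protein kinase A to mitochondria, and Prkcq, a protein kinase C, lay close to the threshold, with edgeR adjusted p of 0.0941 and 0.0992, and lost the call under 21 and 23 of the alternatives, and Rnf138 and another member each under 13.

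**Figure D4:**
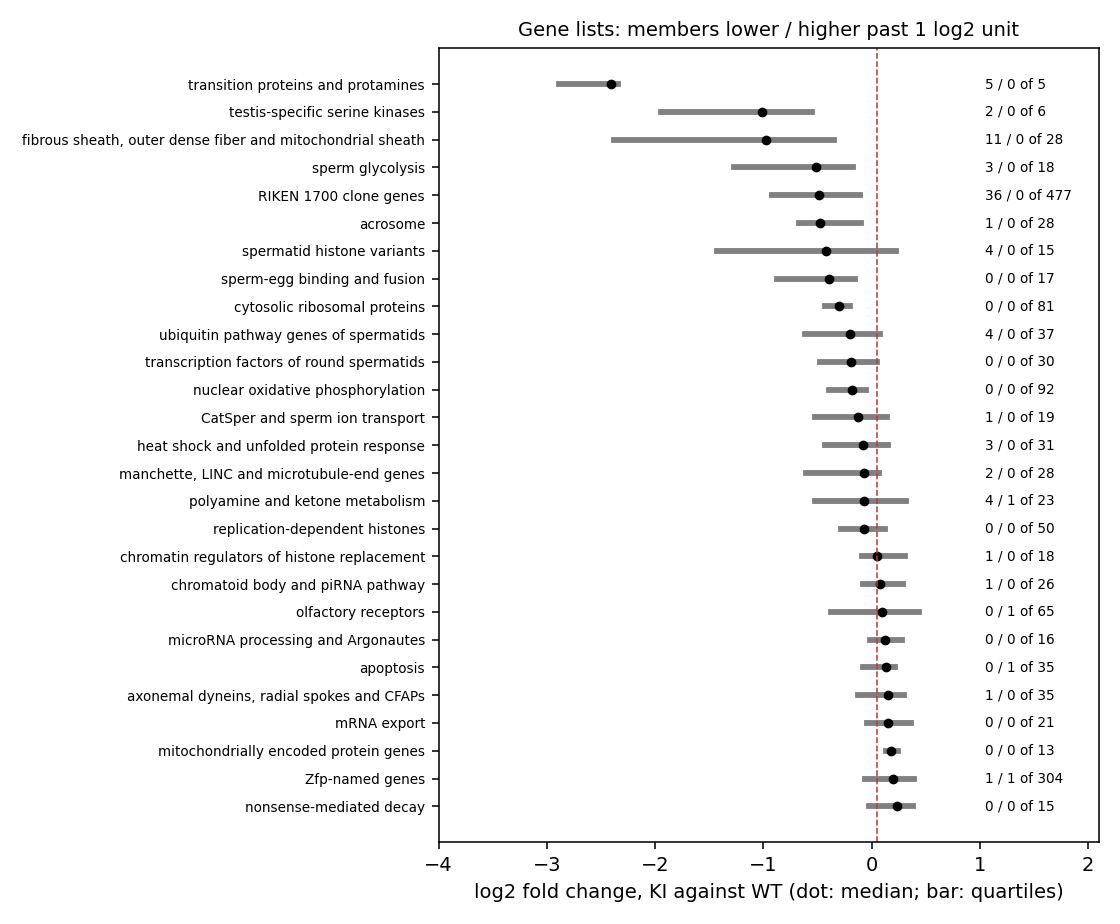
For 27 gene lists the dot gives the median log2 fold change of the tested members, KI against WT, and the bar their quartiles, with the members lower and higher past 1 log2 unit of those tested at the right. The dashed line is the median of all genes tested (0.05), and the transition proteins and protamines lie lowest, at -2.41.

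Genes that handle RNA were counted beside the 1.51% lower and 0.452% higher of all genes tested. Of 26 genes of the chromatoid body and the piRNA pathway 0 passed 1 log2 unit apart from Ddx25, which is no test here, while the test of any amount gave 6 higher and, with Ddx25, 3 lower (median 0.08). Lists of microRNA processing, mRNA export, nonsense-mediated decay and transcription factors of RS gave 0 calls past 1 log2 unit among 16, 21, 15 and 30 tested members. By any amount, 2 were higher and 1 lower of the microRNA genes, 7 and 2 of the export genes, 4 and 0 of the decay genes, and 5 and 7 of the transcription factors, beside 14.5% higher and 15.8% lower of all genes tested. Ddx3x, an X-linked helicase, was higher by any amount at 7.196 CPM in WT and 13.9 CPM in KI (log2 fold change 0.95 ± 0.17 (SE), edgeR glmQLFTest adjusted p = 3.4e-04). Cytosolic ribosomal protein genes had 26 of 81 lower and 2 higher by any amount, beside 15.8% and 14.5% of all genes, with 0 past 1 log2 unit and a median of -0.30. Their summed level was 7934, 8103, 4278, 4781 and 5621 CPM in KI 1, 2, 3, 5 and 6 and 7140.3 to 8976 CPM in WT, so KI 1 and KI 2 lay within WT and the other KI libraries below it. Zfp-named genes, mostly zinc finger transcription factors, had 72 of 304 higher and 16 lower by any amount, beside 14.5% and 15.8% of all genes, with 1 in each direction past 1 log2 unit.

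RIKEN clone genes of the series named from testis cDNA, many of them without a known role, had 36 of 477 lower and 0 higher past 1 log2 unit, and 238 lower and 13 higher by any amount (median -0.49). The shares of all genes tested were 1.51% lower past 1 log2 unit, and 15.8% lower and 14.5% higher by any amount. The largest fall after Ddx25 was in 1700063D05Rik, a lincRNA on chromosome 9, which was at 8.14, 10.001 and 11.97 CPM (lowest, median and highest) in WT and at 0.0442, 0, 0, 0.0467 and 0 CPM in the KI libraries. Its KI libraries were all at 3 or fewer counts, so the level was at least 71.7-fold lower, computed against a floor of 3 counts per library. This gene lies between 5 and 10 Mb from the Ddx25 start, and it was at 0 to 0.217 CPM in the KO libraries. 1700008B11Rik, an antisense RNA, was at 10.2, 12.7 and 13.9 CPM (lowest, median and highest) in WT and at 0.752, 0.999, 0.547, 0.4201 and 1.06 CPM in the KI libraries (log2 fold change -3.99 ± 0.29 (SE), edgeR glmTreat adjusted p = 2.9e-07). Among all long non-coding genes tested, 82 of 3590 were lower (2.28%) and 13 higher (0.362%), and protein-coding genes gave 225 of 14716 lower (1.53%) and 75 higher (0.510%).

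Other large falls were found in genes outside the lists. Lrrc57, a leucine-rich repeat protein, was at 166, 210.0 and 233 CPM (lowest, median and highest) in WT and at 17.4, 20.2, 12.3, 12.98 and 16.6 CPM in the KI libraries (log2 fold change -3.69 ± 0.19 (SE), edgeR glmTreat adjusted p = 6.6e-09). Fam131b was at 12.2 CPM in WT and 0.985 CPM in KI (log2 fold change -3.62 ± 0.23 (SE), edgeR glmTreat adjusted p = 1.2e-07), and Cyp2a12, a cytochrome P450, at 7.69 CPM in WT and 0.671 CPM in KI (log2 fold change -3.50 ± 0.25 (SE), edgeR glmTreat adjusted p = 4.6e-07).

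Higher genes were fewer and of low level in WT, with 74 of 96 under 1 CPM there and 12 at 10 CPM or more in KI. Asprv1, an aspartic protease known from skin, was at 0.106, 0.304 and 0.663 CPM (lowest, median and highest) in WT and at 12.1, 10.7, 8.57, 9.38 and 12.8 CPM in the KI libraries (log2 fold change 5.02 ± 0.33 (SE), edgeR glmTreat adjusted p = 5.1e-08). Angptl2, a secreted angiopoietin-like protein, was at 1.29, 1.803 and 2.79 CPM (lowest, median and highest) in WT and at 13.2, 12.9, 11.6, 12.2 and 14.4 CPM in the KI libraries (log2 fold change 2.80 ± 0.19 (SE), edgeR glmTreat adjusted p = 1.0e-06). All KI values of both lay above those of WT.

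Notch1, a Notch receptor, was at 0.473, 1.002 and 1.41 CPM (lowest, median and highest) in WT and at 4.73, 4.47, 7.02, 7.84 and 6.24 CPM in the KI libraries (log2 fold change 2.62 ± 0.25 (SE), edgeR glmTreat adjusted p = 1.9e-04), in the direction opposite to its ligand gene Jag1. Tns4, a tensin of focal adhesions, was at 0.439 CPM in WT and 5.58 CPM in KI (log2 fold change 3.68 ± 0.36 (SE), edgeR glmTreat adjusted p = 2.9e-05), Tnk1, a tyrosine kinase, at 0.508 CPM in WT and 5.05 CPM in KI (log2 fold change 3.29 ± 0.31 (SE), edgeR glmTreat adjusted p = 3.7e-05), and Psd4, an exchange factor of ARF proteins, at 0.704 CPM in WT and 5.299 CPM in KI (log2 fold change 2.90 ± 0.24 (SE), edgeR glmTreat adjusted p = 1.4e-05). Tox2, an HMG-box protein, was at 0.7799 CPM in WT and 5.07 CPM in KI (log2 fold change 2.71 ± 0.28 (SE), edgeR glmTreat adjusted p = 3.1e-04). By level gained, Plekhg2 was at 9.11 CPM in WT and 35.6 CPM in KI (log2 fold change 1.97 ± 0.17 (SE), edgeR glmTreat adjusted p = 8.4e-04), and Tarsl2, a tRNA synthetase, at 7.13 CPM in WT and 28.5 CPM in KI (log2 fold change 2.002 ± 0.18 (SE), edgeR glmTreat adjusted p = 8.2e-04). The X-linked Yipf6 and Tex13c2 were at 9.3996 CPM in WT and 27.5 CPM in KI and at 6.12 CPM in WT and 17.9 CPM in KI (log2 fold change 1.55 ± 0.14 (SE), edgeR glmTreat adjusted p = 0.0224 and log2 fold change 1.54 ± 0.15 (SE), edgeR glmTreat adjusted p = 0.0418), and both lost the call with close pairs summed, Tex13c2 also without KI replicate 1. Gm15459, a processed pseudogene, was at 0.237, 0.682 and 0.797 CPM (lowest, median and highest) in WT and at 27.9, 29.96, 12.5, 12.8 and 18.4 CPM in the KI libraries (log2 fold change 5.19 ± 0.29 (SE), edgeR glmTreat adjusted p = 6.6e-09), and its counts are uncertain where reads could come from its parent gene. It was highest in KI 1 and KI 2, the libraries with the highest Leydig cell markers, and the part of those cells was not tested. Of 35 apoptosis genes 1 passed 1 log2 unit, Gadd45b, a stress-response gene that was higher (log2 fold change 1.86 ± 0.25 (SE), edgeR glmTreat adjusted p = 0.0641) and lost the call under 8 alternatives. That count stands beside 0.452% higher and 1.51% lower past 1 log2 unit of all genes tested. By any amount 6 apoptosis genes were higher and 3 lower, beside 14.5% and 15.8% of all genes tested.

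The X chromosome gave both kinds of call, with 13 of 716 tested genes higher (1.82%) and 9 lower (1.26%), beside 83 of 20337 higher (0.408%) and 309 lower (1.52%) on the autosomes. On the Y chromosome 2 of 176 were lower and 0 higher. By any amount 47 of the 176 were lower and 1 higher, beside 15.8% and 14.5% of all genes tested. Many of the Y-linked genes are near-identical copies whose counts are uncertain. The shares of counts of a library were tested between genotypes with a two-sided exact permutation test, with Benjamini-Hochberg adjustment over 5 shares. The X-linked share was 0.898 ± 0.08496% (SD, n = 6) in WT and 0.663 ± 0.09001% (n = 5) in KI. The exact permutation p was 0.00433, the smallest that 5 against 6 libraries can give, and 0.0216 after adjustment. With close pairs averaged the difference was -0.224 percentage points and missed the threshold, with an exact permutation p of 0.1, the smallest that 3 against 3 can give. Akap4 alone held 0.217% of counts in WT and 0.0482% in KI, and without it, a step chosen after the values were seen, the X-linked shares were 0.681 ± 0.0719% and 0.614 ± 0.0827% (exact permutation p = 0.195). The shares of mitochondrial rRNA genes (10.96 ± 1.36% and 11.7 ± 3.596%), protein-coding genes, the Y chromosome and the 10 most abundant genes had adjusted permutation p-values of 0.814, 0.814, 0.400 and 0.814.

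Around Ddx25 a few genes were called. Within 5 Mb of its start 71 other genes were tested, with 3 lower and 1 higher past 1 log2 unit (5.63% called), beside 1.89% called on the other chromosomes. Pus3, a pseudouridine synthase next to Ddx25, was at 4.304, 5.85 and 5.94 CPM (lowest, median and highest) in WT and at 1.99, 1.44, 1.37, 1.54 and 1.63 CPM in the KI libraries (log2 fold change -1.80 ± 0.16 (SE), edgeR glmTreat adjusted p = 0.00264). The library labelled KI 4 held 4.11 CPM, in the KO range, and Pus3 lost the call against WT with that library included and with close pairs summed. Tmem225, a testis membrane protein, was at 47.8 CPM in WT and 12.6 CPM in KI (log2 fold change -1.92 ± 0.19 (SE), edgeR glmTreat adjusted p = 0.00258). Olfr896-ps1, an olfactory receptor copy, was at 6.08 CPM in WT and 1.07 CPM in KI (log2 fold change -2.52 ± 0.29 (SE), edgeR glmTreat adjusted p = 0.00163), and reads of near-identical copies make its counts uncertain. Olfr893 was at 0 in each WT library and at 0.187 to 0.519 CPM in KI, at least 2.0996-fold higher against the floor. It passed the filter on low counts only with the KO libraries in the fit, and it is the 1 higher gene counted in the 5.63%. In KO against WT the log2 fold changes were -0.17 for Pus3, -1.79 for Tmem225 and -2.76 for Olfr896-ps1, and Olfr893 was at 0.173 to 0.918 CPM in KO. Between 5 and 10 Mb 5 of 98 were called, among them 1700063D05Rik.

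**Figure D5:**
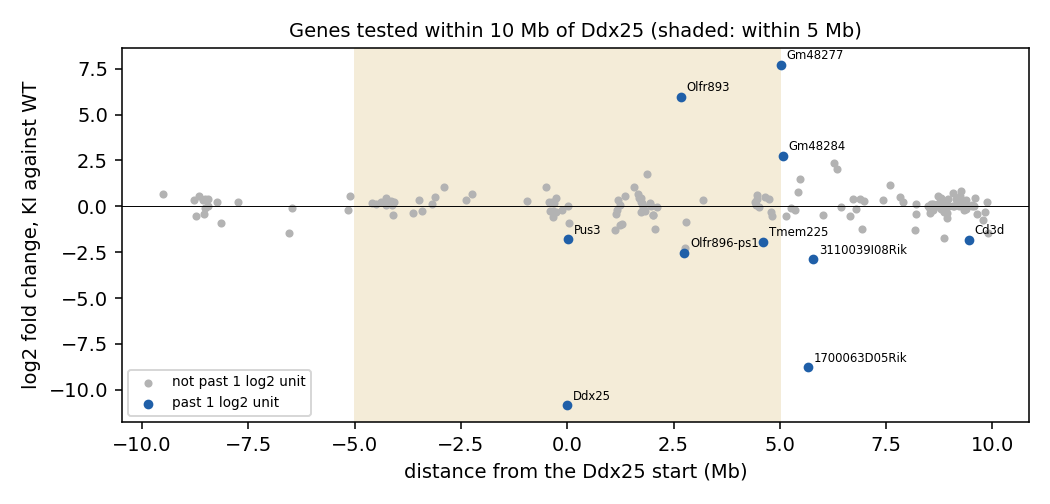
Genes tested within 10 Mb of the Ddx25 start are placed by distance in Mb on the x axis and by log2 fold change, KI against WT, on the y axis, with genes past 1 log2 unit in blue and the 5 Mb window shaded. Besides Ddx25, 4 genes in the window are called, with Pus3 beside Ddx25 and Olfr893, Olfr896-ps1 and Tmem225 farther to the right.

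The KO libraries share the WT controls of this comparison, and KI was compared with KO directly. KI and KO lay on opposite sides of the second principal component, which also split the WT libraries. Genotype and a grouping of libraries other than genotype therefore cannot be told apart in the test of KI against KO. Between KI and KO 111 genes differed by any amount (0.522%), 60 higher and 51 lower in KI, of which 21 lie on chromosome 9, 18 on chromosome 14 and 17 on chromosome 8. These chromosomes hold 5.78%, 4.50% and 5.35% of all genes tested. This count was 59 without KO replicate 4 or without KO replicate 5, 62 without KO replicate 2, 21 with the library labelled KI 4, 44 with close pairs summed and 56 with a replicate block, and the chromosomes were counted in the fit reported alone. Of the 416 genes past 1 log2 unit against WT, 15 differed between KI and KO. One of the 15 is Ddx25, whose difference from KO (log2 difference -7.83) rests on KI libraries chosen by the level of this gene. Pus3 was lower in KI than in KO (-1.63, edgeR glmQLFTest adjusted p = 3.6e-06) and Bdh1 was higher (0.99, edgeR glmQLFTest adjusted p = 7.0e-05). For Bdh1 the library labelled KI 4 held 14.6 CPM, within the KO range of 11.1 to 14.7 CPM and below every KI library used. Side by side, the log2 fold changes against WT were -3.55 in KI and -3.36 in KO for Prm2, -2.33 and -2.10 for Akap4, -4.01 and -3.73 for Camsap3, and 5.02 and 5.10 for Asprv1. A difference that misses the threshold here does not show that the genotypes are alike.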

How the data were processed

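Before deposit the authors trimmed reads (cutadapt 3.4), mapped them to the mouse GRCm38 genome (STAR 2.7.8a) and counted them by strand per GENCODE gene (featureCounts, Subread 2.0.1). The deposited counts are raw and were used unchanged. No column of values was left without a library (0). The submitters' notes also name FastQC 0.11.9, SAMtools 1.12 and Bowtie2. Genes were named with GENCODE M21.

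Counts of 17 libraries (6 WT, 6 KO and 5 KI, without the library labelled KI 4) were filtered with filterByExpr, scaled with TMM and fitted by genotype with edgeR 4.0.16 in R 4.3.3, so KO shares the estimate of the spread. Tests were made on this fit, glmTreat against 1 log2 unit and glmQLFTest against no change, both called at a Benjamini-Hochberg adjusted p under 0.1. The design did not fix the form of the glmTreat null. The first run used edgeR's default interval form, and the worst-case form, which is closer to the DESeq2 threshold test of the study's methods, replaced it after the counts of the first run and of an earlier description of these data were seen. Both are given. Standard errors are of the log2 fold change. Scripts were tested on simulated data.

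A floor of 3 counts corresponded to 0.1198 to 0.159 CPM. Floors cover counting error only, since reads copied by PCR are not separate molecules where none carries an identifier.

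The comparison, members and gene lists were chosen with earlier results of these data known. Named genes are Ddx25; the 8 largest rises and falls by log2 fold change with no overlap and at least 5 CPM in the higher genotype; the 6 largest by CPM; genes past 1 log2 unit within 5 Mb of Ddx25; from each list the 2 largest changes and the most abundant member in WT; and markers. Other genes, named as examples of a list, were chosen after their values were seen, and not every gene the rule selects is reported here. Alternatives were DESeq2 1.42.0, other scalings and filters, fewer or more libraries, summed pairs, a replicate block and an adjusted p under 0.05. Figures used Python 3.11.15 and matplotlib 3.10.9. The authors' miRNA data were not analysed here.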

Additional observations from a re-analysis of the deposited data

Results flagged for a closer look

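Among the named genes and the shares of counts, 12 of 308 groups of libraries held 1 library far from the rest. Some such groups arise by chance, and their number was not measured. WT 6 was farthest for Prm1 (1589.95 CPM, lowest) and Atp1b3 (286 CPM, lowest), and for the Leydig cell markers Cyp11a1 (2.53 CPM), Cyp17a1 (6.85 CPM), Hsd3b6 (2.71 CPM) and Insl3 (3.91 CPM), where it was the highest WT library. KI 3 was lowest for Prm2 (394 CPM) and Tnp2 (297 CPM) and highest for the Sertoli marker Cldn11 (1.55 CPM), and KI 6 was highest for Vwf (22.5 CPM). WT 3 was highest for Tns4 (0.903 CPM) and lowest for Pus3 (4.30 CPM). Without KI replicate 3 the calls past 1 log2 unit were 257 lower and 104 higher, and without WT replicate 6 they were 302 and 96.

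The effect against WT differed between KI and KO, by the direct test of KI against KO in edgeR, for 3 of 149 named genes. Pus3 had a log2 difference of -1.63 and Bdh1 of 0.99, and for both the library labelled KI 4, left out of the test, lay in the KO range. The third, Ddx25 (-7.83), rests on KI libraries chosen by the level of this gene and is no test.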

How the results depend on the processing

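In the alternatives, the counts of 320 lower and 96 higher genes past 1 log2 unit became 460 and 151 with the interval form of glmTreat, which was run first and replaced by the worst-case form after its counts were seen, 307 and 103 with DESeq2, 245 and 122 with total counts only, 301 and 110 with the library labelled KI 4, 287 and 83 at an adjusted p under 0.05, and 165 and 62 with close pairs summed. Requiring at least 10 counts in every library left 251 and 26, since that filter removes genes near 0 in 1 genotype. Leaving out 1 library at a time gave 257 to 336 lower and 80 to 116 higher genes. By any amount, 5521 genes were higher with total counts only, and 1275 were higher and 1647 lower with pairs summed. Without 1 library these counts were 2858 to 4301 higher and 2563 to 3456 lower.

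The number of genes that differed between KI and KO, 111, moved most. It was 191 with no filter on low counts, 69 with at least 10 counts in every library, 21 with the library labelled KI 4, 178 without WT 5 and 6, 44 with pairs summed, 69 at an adjusted p under 0.05, and 59 to 127 without 1 library, lowest without KO replicate 4 or 5. With a replicate block it was 56, and the calls against WT were 291 lower and 87 higher. The deviations of same-numbered WT and KI libraries had correlations of -0.19, -0.07, -0.39, 0.23 and -0.02. By this measure WT 5 was the closest WT library to KI 5, and the other KI libraries were closest to a WT library of another number. Whether libraries were prepared together was not tested.

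Of 64 called named genes, 46 kept the call under every alternative that tested them and 0 reversed. The filter of at least 10 counts in every library left Ddx25, Gm15459, Asprv1, Tns4, Tnk1, Psd4, Tox2, 1700063D05Rik, Camsap3, 1700008B11Rik, Cyp2a12 and Olfr893 untested, and the fit of KI and WT alone left Olfr893 untested. Prkcq lost it under 23, Akap1 under 21, Rnf138 and another gene of the qRT-PCR panel under 13 each, Gadd45b under 8, Tbc1d20 under 6, and Pus3 and Tex13c2 under 2. Akap4, Atp1b3, H1fnt, Hipk1, Hspa1l, Jag1, Pdzd8, Smcp, Yipf6 and Zfp7 lost it with close pairs summed only. The X-linked share differed by -0.235 percentage points, by -0.261 to -0.205 without 1 library, by -0.0662 without Akap4, a step chosen after seeing the data (exact permutation p = 0.195) and by -0.224 with close pairs averaged, where 3 against 3 cannot go below the exact permutation p = 0.1 found. Differences in the other shares missed the threshold and some changed sign. Mitochondrial rRNA ranged from -0.159 to 1.79 without 1 library, and was negative without KI replicate 3 (-0.0938) or 5. Protein-coding genes ranged from -0.823 to 1.71, negative without WT replicate 4 (-0.0786) or KI replicate 1 (-0.460) or 2, and were at -0.739 with the library labelled KI 4. The 10 most abundant genes ranged from -1.62 to 0.622, positive without WT replicate 4 (0.0890) or KI replicate 1 (0.261) or 2, and were at 0.805 with the library labelled KI 4. The causes were not tested. At this depth a gene under 3 counts in a library could not be told from 0, and close pairs of libraries may hold fewer independent samples than their number.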

Other observations

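Genes outside the comparisons above were also called. These were chosen after their values were seen. Cpne7, a copine that binds membranes with calcium, was at 0.231 CPM in WT and 3.64 CPM in KI and differed from KO (log2 difference 3.04, edgeR glmQLFTest adjusted p = 8.6e-07). On chromosome 14, 1700001F09Rik was at 59.5 CPM in WT and 12.2 CPM in KI (log2 fold change -2.28 ± 0.21 (SE), edgeR glmTreat adjusted p = 1.9e-04), with a log2 fold change of -0.23 in KO. Exonic length had a median of 1726 bases in the lower genes, 3018.5 in the higher genes and 3040.0 in all genes tested.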
